A study of Mus musculus with 16 samples.

Results

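Disease-associated microglia are the state that the resident macrophages of the brain take up around amyloid plaques, tau-laden neurons and damaged myelin. The change runs through the lipid receptor Trem2 and its adaptor Tyrobp, and it turns on genes for phagocytosis, lysosomes and lipid handling while the genes of resting, homeostatic microglia are turned down. In mouse models of tauopathy the same state is known to gather where neurons degenerate. The 10 marker genes described here, Clec7a, Itgax, Cst7, Spp1, Gpnmb, Lgals3, Igf1, Cd9, Lyz2 and Cd52, were taken by symbol from the 54532 entries of the count table. On build GRCm38, Clec7a, Gpnmb and Cd9 lie on chromosome 6, Igf1 and Lyz2 on 10, and Itgax, Cst7, Spp1, Lgals3 and Cd52 on 7, 2, 5, 14 and 4. All 10 were found, and all 10 were among the 17736 genes that passed the filter on low counts.

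The counts come from bulk RNA of brain tissue of female mice aged 9 months, in 16 libraries that form 4 groups of 4. Ch25h+/+ and Ch25h-/- mice were each studied without (Tau-) and with (Tau+) a tau transgene, as the tau labels are understood here, and the labels do not name the line or its promoter. Ch25h encodes cholesterol 25-hydroxylase, the enzyme that makes the oxysterol 25-hydroxycholesterol, and it is deleted in the -/- groups. The question is how the tau transgene and the absence of Ch25h, apart and together, bear on these genes. The tissue is frontal cortex by the sample labels and hippocampus by the series text. The labels do not say that the 4 libraries of a group come from separate animals, so the p-values measure only the spread between these libraries, which may be technical.

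The libraries held 15530352 to 25602500 counts. Ch25h itself had 0 counts in all 8 Ch25h-/- libraries, which allows up to 3 counts in each, and 5 to 30 counts in the 8 Ch25h+/+ libraries. Prnp, whose promoter drives several tau transgenes, stood at 1414 to 1935 CPM (counts normalised to library size, with sizes scaled by the trimmed mean of M values, TMM) in the 8 Tau+ libraries and at 708 to 839 in the 8 Tau- libraries. Both genes thus matched the labels in every library. Of the 8 Ch25h-/- libraries 7 were rich in a ribosomal RNA transcript, above 1000 CPM of all counts, and none of the 8 Ch25h+/+ libraries was. The exception was Ch25h-/- Tau+ replicate 1. Apart from that library, Ch25h genotype and this library class cannot be told apart. Cortical neuron markers summed to 471 to 608 CPM and hippocampal markers to 26.0 to 72.0, while choroid plexus markers ranged from 16.8 to 2767 CPM over the 16 libraries.

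The members differ in role. Clec7a (dectin-1) is a pattern recognition receptor for beta-glucans, Itgax (CD11c) an integrin subunit, and Cst7 (cystatin F) an inhibitor of lysosomal cathepsins. Spp1 (osteopontin), Igf1 (insulin-like growth factor 1) and Lgals3 (galectin-3) encode secreted proteins. Gpnmb is a glycoprotein of lysosomes and the cell surface, Cd9 a tetraspanin, Lyz2 the lysozyme of macrophages, and Cd52 a small surface glycoprotein of leukocytes. Clec7a, Itgax and Cst7 are nearly silent in resting microglia, whereas Cd9, Igf1 and Spp1 are also made by other cells of the brain. In bulk tissue, more cells of a type and more RNA per cell cannot be told apart.

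The promoters of the members are shown because 8 of the 10 genes stood apart between the Ch25h+/+ groups. RefSeq promoter entries, on build GRCm38.p6, matched 9 of the 10 members, with Cd52 not among them. The 250 bases before the start were searched on both strands for the ETS core of PU.1, the master factor of the myeloid lineage (GGAAGT), for AP-1 (TGANTCA), for the E-box of the TFEB and MITF family (CACGTG) and for C/EBP (TTGCNNAA). The ETS letters were found in 4 members, Itgax, Cst7, Spp1 and Lyz2, and in 19.7% of all 32851 promoters of that length. In Itgax they occur at 2 sites, 121 and 41 bases before the start, and in Cst7 at 62, in Spp1 at 111 and in Lyz2 at 100 bases. AP-1 letters were found in Itgax and Igf1, against 6.75% of all promoters. The E-box was found in none of the 9, against 6.02%, and the C/EBP letters in 1, at the second start of Spp1, against 9.56%. Shown 5′ to 3′ on the strand of the gene, with capitals for the ETS and AP-1 letters, are 3 windows that hold the ETS letters and that of Clec7a, which holds none of the motifs. They are chr7:128129300-128129549 and chr2:150570165-150570414 and chr5:104434861-104435110 on the plus strand and chr6:129472780-129473029 on the minus strand.
Itgax: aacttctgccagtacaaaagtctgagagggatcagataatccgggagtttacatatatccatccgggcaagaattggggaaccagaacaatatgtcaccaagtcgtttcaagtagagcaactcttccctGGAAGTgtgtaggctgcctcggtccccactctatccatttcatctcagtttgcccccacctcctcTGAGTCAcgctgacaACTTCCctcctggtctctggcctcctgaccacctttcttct
Cst7: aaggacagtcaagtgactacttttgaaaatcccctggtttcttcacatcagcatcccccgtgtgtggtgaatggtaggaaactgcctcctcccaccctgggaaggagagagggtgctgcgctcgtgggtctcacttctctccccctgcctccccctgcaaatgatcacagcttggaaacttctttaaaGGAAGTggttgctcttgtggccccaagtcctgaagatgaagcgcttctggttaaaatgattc
Spp1: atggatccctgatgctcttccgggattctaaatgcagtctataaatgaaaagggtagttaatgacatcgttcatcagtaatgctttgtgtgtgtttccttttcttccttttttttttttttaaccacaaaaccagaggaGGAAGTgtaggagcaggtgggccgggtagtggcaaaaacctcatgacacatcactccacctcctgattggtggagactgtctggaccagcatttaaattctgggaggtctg
Clec7a: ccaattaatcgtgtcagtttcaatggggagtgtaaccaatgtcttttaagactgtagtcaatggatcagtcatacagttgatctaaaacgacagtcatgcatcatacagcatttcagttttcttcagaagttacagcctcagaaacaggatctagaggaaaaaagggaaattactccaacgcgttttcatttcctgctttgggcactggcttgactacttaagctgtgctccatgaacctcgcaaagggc
In Itgax the AP-1 letters lie 56 bases before the start, between the ETS sites. A match is a description of the letters, and a window without one says only that these letters are not in it.

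With Ch25h present, the tau transgene went with higher levels of most of these genes. Clec7a, Itgax, Cst7, Lgals3, Cd9, Lyz2 and Cd52 rose, 7 of the 10 members, and none fell (edgeR quasi-likelihood test, adjusted p under 0.05). Of all 17736 genes tested, 1.53% rose. The median log2 fold change of the members was 2.45, and that of all genes -0.0080. In 8 members the 4 Tau+ libraries all lay above the 4 Tau- libraries, which held for 3.89% of all genes. Clec7a, Itgax and Cst7 do not pass the filter on low counts in the 8 Tau- libraries alone, and so were in the test through libraries where they are high. The counts of 7 and 8 include them.

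The receptors are given first. Clec7a read 0.0462, 0.219, 0.0863 and 0.0504 CPM in the Ch25h+/+ Tau- libraries and 4.25, 6.02, 7.39 and 10.6 CPM in the Ch25h+/+ Tau+ libraries. The lowest Tau+ library was far above the highest Tau- library, whose group held 8 counts in all, with 3 of its 4 libraries at or under 3 counts. Clec7a rose by 6.10 on the log2 scale (standard error 0.72, adjusted p 0.000205), and by 6.71 without Ch25h+/+ Tau- replicate 2. Itgax read 0.508, 0.219, 0.0863 and 0.403 CPM in Tau- and 3.20, 9.30, 10.1 and 21.9 CPM in Tau+. The groups did not overlap, but the Tau+ libraries were spread over a range of 6.84-fold. The log2 fold change of Itgax was 5.18 (standard error 0.74, adjusted p 0.00155).

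Cst7 and Lyz2 act in lysosomes and phagocytosis. Cst7 read 0.277, 0, 0.0432 and 0.101 CPM in Tau- and 6.04, 5.76, 4.97 and 8.50 CPM in Tau+. It was near the limit of detection without the transgene, with 9 counts over 4 libraries, and close to uniform with it. Cst7 rose by 5.79 on the log2 scale (standard error 0.96, adjusted p 0.00483), and by 6.84 without Ch25h+/+ Tau- replicate 1. Lyz2 read 6.19, 7.77, 5.78 and 3.07 CPM in Tau- and 25.2, 27.4, 40.1 and 86.4 CPM in Tau+, without overlap. Its log2 fold change was 2.98 (standard error 0.45, adjusted p 0.00341). Lyz2 shares 15.4% of its 50-base words with its copy Lyz1, which had at most 2 counts in any library.

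Cd52 had the smallest p of the members. It read 0.601, 1.04, 0.475 and 1.11 CPM in Tau- and 3.82, 4.29, 3.95 and 4.996 CPM in Tau+. The Tau+ libraries were tight around their mean of 4.26 ± 0.527 CPM (SD, n = 4) and clear of the Tau- libraries. Cd52 rose by 2.41 on the log2 scale (standard error 0.25, adjusted p 1.35e-05). Cd52 overlaps Crybg2 on the opposite strand over 8.89% of its 50-base words, and whether counting used strand is not given in the sources used here.

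Cd9 rose least of the 7 called genes and from the highest level. It read 22.4, 26.5, 28.5 and 24.1 CPM in Tau- and 38.6, 45.1, 41.8 and 65.3 CPM in Tau+, without overlap. The log2 fold change was 0.91 (standard error 0.15, adjusted p 0.00128). Cd9 shares 14.4% of its 50-base words with other genes, mostly an antisense transcript, so its level carries that uncertainty. Spp1 shares 11.6% with an overlapping transcript on its own strand, and Itgax 8.02% with the integrin gene Itgad.

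Lgals3 read 0.323, 0.602, 1.34 and 0.453 CPM in Tau- and 1.91, 2.19, 2.14 and 9.20 CPM in Tau+. All 4 Tau+ libraries were above the Tau- libraries, and replicate 4 was far above the other 3. The log2 fold change was 2.48 (standard error 0.56, adjusted p 0.0292). This call was the least firm. It was lost without Ch25h+/+ Tau+ replicate 4 (log2 fold change 1.59, adjusted p 0.131), and also without Ch25h+/+ Tau- replicate 1, 2 or 4, where the adjusted p was 0.118, 0.104 and 0.121. It was also lost with no filter beyond 1 count (adjusted p 0.128) and with only the 8 Ch25h+/+ libraries in the fit (adjusted p 0.159).

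Of the 3 members that did not pass, Spp1 read 7.21, 9.35, 9.36 and 5.34 CPM in Tau- and 23.7, 19.5, 18.3 and 46.7 CPM in Tau+. Its groups did not overlap, and the log2 fold change was 1.79 (standard error 0.44, adjusted p 0.0713). It passed without Ch25h-/- Tau- replicate 1 (adjusted p 0.0114), in DESeq2 (adjusted p 0.00326), in limma-voom (adjusted p 0.0323), with only the 8 Ch25h+/+ libraries in the fit (adjusted p 0.0384) and with non-robust estimation of the spread (adjusted p 0.0144). Gpnmb lay at 1.16 to 3.67 CPM in Tau- and at 2.34 to 15.4 CPM in Tau+, with only replicates 2 and 4 above the Tau- range, and its log2 fold change was 1.36 (standard error 0.56, adjusted p 0.438), and 0.43 without Ch25h+/+ Tau+ replicate 4. Igf1 lay at 6.88 to 9.72 CPM in Tau- and 7.51 to 12.2 CPM in Tau+, with a log2 fold change of 0.29 (standard error 0.18, adjusted p 0.717).

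**Figure D1:**
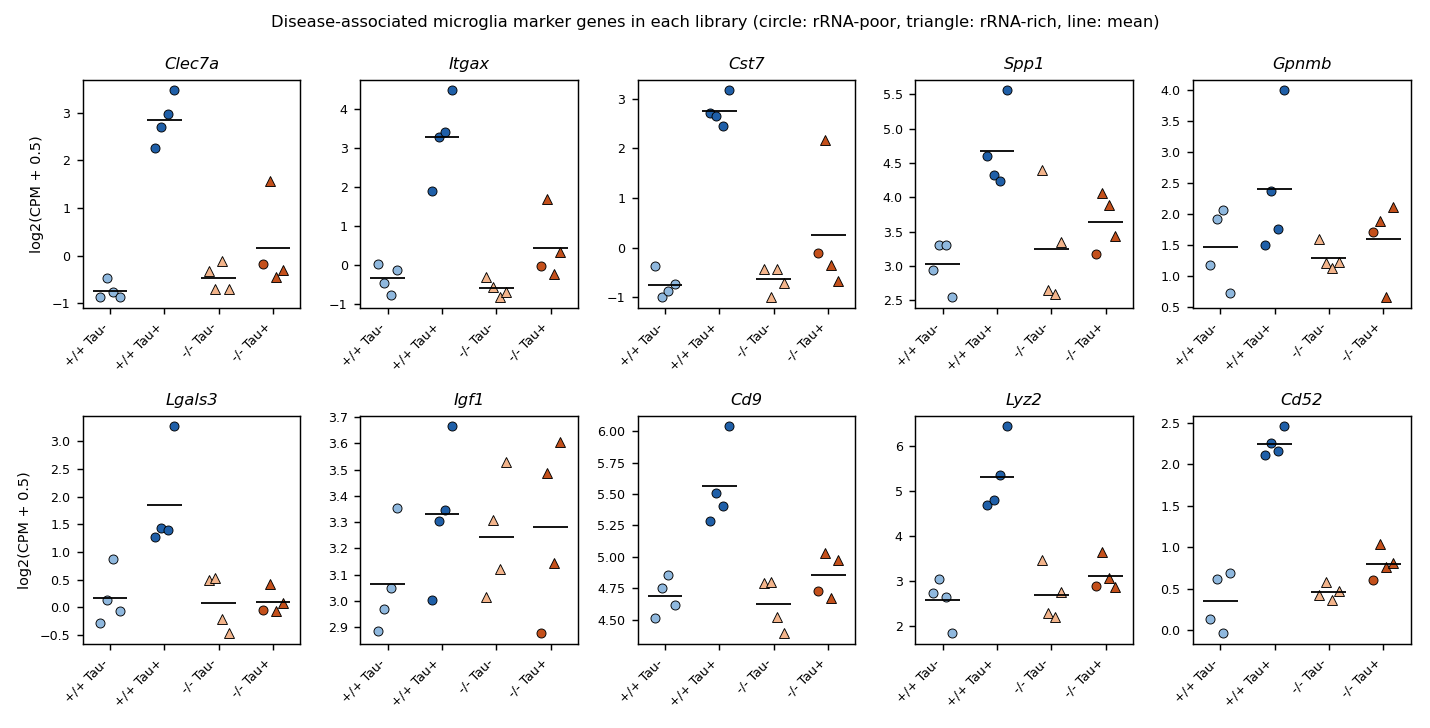
Level of each of the 10 genes in each of the 16 libraries, as log2(CPM + 0.5), with 1 panel per gene and 1 column per group (Ch25h genotype, then tau status). Points are libraries, circles poor and triangles rich in the ribosomal RNA transcript, and lines are group means. The 4 Ch25h+/+ Tau+ libraries lie above the other 12 in 7 panels, all but Spp1, Gpnmb and Igf1.

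The order of levels between genes was read per kilobase of exon. In Ch25h+/+ Tau+, Lyz2 had the highest mean level per length, at 34.0 CPM per kb, then Cd9 at 23.3 and Spp1 at 16.4. Cst7 stood at 6.41 CPM per kb, Cd52 at 3.59, Clec7a at 2.68, Itgax at 2.32 and Lgals3 at 2.08, and Igf1 and Gpnmb were lowest at 0.978 and 0.971. In Ch25h+/+ Tau- the mean level per length was highest for Cd9, at 12.4 CPM per kb, and lowest for Clec7a, at 0.0381. The 3 genes with the largest fold changes, Clec7a, Cst7 and Itgax, were thus the 3 of lowest level per length without the transgene, with Cst7 at 0.107 and Itgax at 0.0633 CPM per kb.

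Without Ch25h, no member passed the test for tau (edgeR quasi-likelihood test, smallest adjusted p 0.99998). Clec7a, Itgax, Cst7 and Lgals3 were in that test because the filter used all 16 libraries: with only the 8 Ch25h-/- libraries 6 members pass the filter, and none of the 6 was called. At an unadjusted p under 0.05 there were 3, Clec7a, Itgax and Cst7, against 3.57% of all genes. All 3 fail the filter both in the 8 Ch25h-/- and in the 8 Tau- libraries and were tested through the Ch25h+/+ Tau+ group where they are high, so nothing is read from this count, and none of the 6 that pass within Ch25h-/- was under 0.05. DESeq2 and limma-voom also called 0 members, with 14 and 6 calls over all genes. Of all genes, 0.0282% rose at an adjusted p under 0.05, so calls were rare throughout this comparison. The members' median log2 fold change was 0.43, and that of all genes 0.0080. The Tau+ libraries lay above the Tau- libraries in 2 members, Itgax and Cd52, against 1.14% of all genes. Of these 2, only Cd52 passes the filter within Ch25h-/-, so nothing is read from this count either.

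Clec7a read 0.301, 0.118, 0.422 and 0.112 CPM in Ch25h-/- Tau- and 0.391, 2.47, 0.227 and 0.312 CPM in Ch25h-/- Tau+. Replicate 2 was high, and the other 3 Tau+ libraries lay within the Tau- range. The log2 fold change of Clec7a was 1.75 (standard error 0.76), and 0.42 without replicate 2. Cst7 read 0.241, 0, 0.241 and 0.112 CPM in Tau- and 0.430, 3.96, 0.284 and 0.125 CPM in Tau+. The same library held 61 of the 79 Cst7 counts of its group, and the log2 fold change of 2.91 (standard error 1.07) was 0.98 without it. Itgax read 0.301, 0.176, 0.0603 and 0.112 CPM in Tau- and 0.469, 2.73, 0.341 and 0.749 CPM in Tau+. Here all 4 Tau+ libraries were above the Tau- range, and the log2 fold change of Itgax was 2.61 (standard error 0.98), and 1.62 without replicate 2.

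Cd52 read 0.843, 0.99996, 0.783 and 0.892 CPM in Ch25h-/- Tau- and 1.02, 1.56, 1.19 and 1.25 CPM in Ch25h-/- Tau+. The 4 Tau+ libraries were above the Tau- libraries by a narrow margin, with a log2 fold change of 0.49 (standard error 0.27). Lyz2 read 10.6, 4.35, 4.10 and 6.25 CPM in Tau- and 6.89, 12.1, 7.90 and 6.81 CPM in Tau+. Its groups overlapped, and its log2 fold change was 0.40 (standard error 0.46). Cd9 gave 0.22 (standard error 0.15), Gpnmb 0.46 (standard error 0.60), Spp1 0.24 (standard error 0.44), Igf1 0.04 (standard error 0.18) and Lgals3 -0.08 (standard error 0.67) on the same log2 scale, all with overlap of the groups.

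Ch25h-/- Tau+ replicate 2 was the highest library of its group for 8 of the 10 members. The share of all genes for which it was the highest was not computed. Relative to the mean of the other 3 libraries, it was 14.2-fold for Cst7, 7.96-fold for Clec7a and 5.25-fold for Itgax, and 1.18-fold to 1.71-fold for the other 7. Even so it lay below the lowest Ch25h+/+ Tau+ library for 8 of the 10 members, the exceptions being Gpnmb and Igf1. The share of all genes that lay below in this way was not computed, so the count only describes this library. Its Gfap level, the astrocyte filament gene, was 302 CPM, against 139 to 189 CPM in the other 3. Its Prnp level was 1821 CPM, against 1414 to 1691 CPM. Whether these differences account for the members' levels in this library was not tested.

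**Figure D2:**
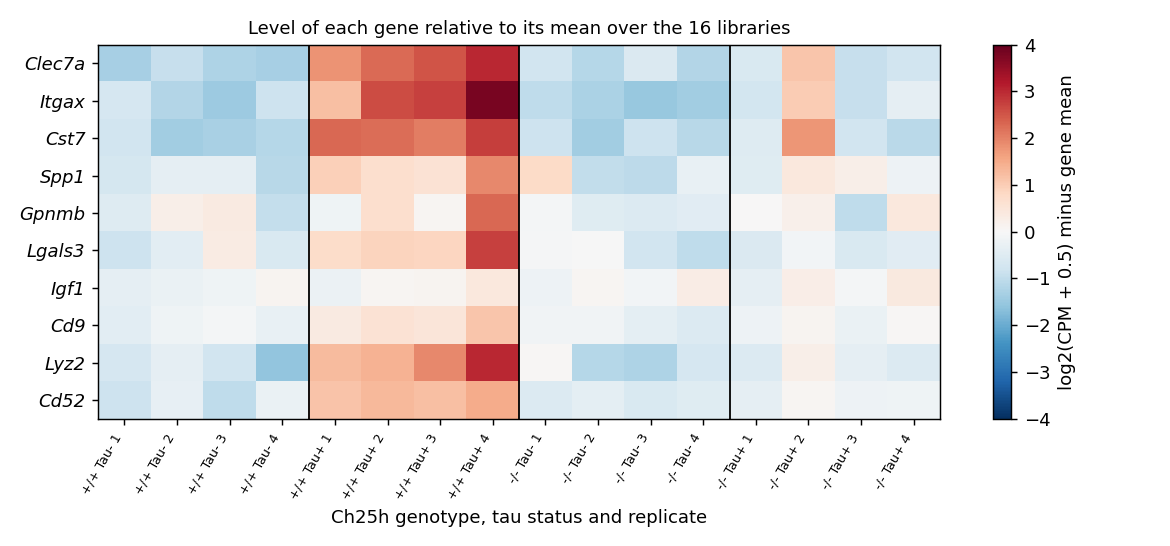
Each row is a gene and each column a library, and the colour gives log2(CPM + 0.5) minus the gene's mean over the 16 libraries, with vertical lines between the 4 groups. The Ch25h+/+ Tau+ block is red in most rows, with its replicate 4 the highest of its group for 10 of 10 genes, and Ch25h-/- Tau+ replicate 2 stands out in the rows of Clec7a, Itgax and Cst7. The share of all genes for which replicate 4 was the highest was not computed.

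Among Tau+ libraries, Ch25h loss went with lower levels. Clec7a, Itgax, Lgals3, Cd9, Lyz2 and Cd52 fell, 6 of the 10 members, and none rose (edgeR quasi-likelihood test), while 2.65% of all genes fell. Clec7a, Itgax and Lgals3 of these 6 do not pass the filter in the Ch25h-/- libraries alone and were tested through Ch25h+/+ libraries, where they are higher, so the count of 6 includes them; Cd9, Lyz2 and Cd52 pass in either genotype. The members' median log2 fold change was -2.10, and that of all genes 0.0044. In 8 members every Ch25h-/- Tau+ library lay below every Ch25h+/+ Tau+ library, against 5.74% of all genes. These 8 include Clec7a, Itgax, Lgals3 and also Cst7, which likewise does not pass the filter in the Ch25h-/- libraries alone. This comparison shares its Ch25h+/+ Tau+ libraries with the tau effect in Ch25h+/+, so the values of both are given side by side and are not independent.

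Cd52 fell from 4.26 ± 0.527 to 1.25 ± 0.226 CPM (SD, n = 4), a log2 fold change of -1.78 (standard error 0.24, adjusted p 0.000509). Its tau effect in Ch25h+/+ was 2.41. Clec7a fell from 7.06 ± 2.68 to 0.850 ± 1.08 CPM (SD, n = 4), a log2 fold change of -3.12 (standard error 0.55, adjusted p 0.00783), against a tau effect of 6.10. Its SD in Ch25h-/- Tau+ is larger than its mean because of replicate 2, and without that library the log2 fold change was -4.47. Itgax fell from 11.1 ± 7.81 to 1.07 ± 1.12 CPM (SD, n = 4), a log2 fold change of -3.44 (standard error 0.64, adjusted p 0.0136), against 5.18, and -4.45 without the same library. Lyz2 fell from 44.8 ± 28.5 to 8.42 ± 2.49 CPM (SD, n = 4), a log2 fold change of -2.42 (standard error 0.44, adjusted p 0.0143), against 2.98.

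Lgals3 read 0.469, 0.845, 0.455 and 0.562 CPM in Ch25h-/- Tau+, all below the 1.91 CPM of the lowest Ch25h+/+ Tau+ library. Its log2 fold change was -2.74 (standard error 0.58, adjusted p 0.0211). Cd9 read 26.0, 32.3, 25.0 and 31.0 CPM in Ch25h-/- Tau+, against 38.6 CPM in the lowest Ch25h+/+ Tau+ library. The groups were apart, with a log2 fold change of -0.74 (standard error 0.15, adjusted p 0.0105). Of the members that did not pass, Cst7 had no overlap and a log2 fold change of -2.46 (standard error 0.71, adjusted p 0.0684). Without Ch25h-/- Tau+ replicate 2 it passed, at -4.40 (adjusted p 5.63e-05), as it did in limma-voom (-3.57, adjusted p 0.00637) and with non-robust estimation of the spread (adjusted p 0.0416). Spp1 read 8.53, 16.2, 14.3 and 10.3 CPM, also without overlap, with a log2 fold change of -1.14 (standard error 0.43, adjusted p 0.131). Gpnmb (-1.23, standard error 0.56, adjusted p 0.201) and Igf1 (-0.05, standard error 0.18, adjusted p 0.886) overlapped between the groups. Without Ch25h+/+ Tau+ replicate 4 the value of Gpnmb was -0.31.

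These calls depended on the samples in the fit. The count of 6 was 2 without Ch25h-/- Tau+ replicate 3, which left Clec7a and Cd52, and 3 without replicate 4, which left Clec7a, Cd9 and Cd52. It was 7 without replicate 2. Calls over all genes moved as well, from 698 to 125 without replicate 3, 151 without replicate 4, 218 without replicate 2 and 1718 without replicate 1. Lgals3 also lost its call without Ch25h+/+ Tau+ replicate 4 (log2 fold change -1.86, adjusted p 0.0617), a fit with 132 calls over all genes. With only the 8 Tau+ libraries in the fit, Cd52 alone of the members passed, among 119 genes in all, while the log2 fold changes of the 6 genes stayed at -0.74 to -3.45. With library class as a covariate none of the 6 passed, with log2 fold changes of -0.88 to -4.55 and adjusted p of 0.0840 for Cd52 and 0.412 to 0.855 for the others, and 12 genes passed in all. Within the ribosomal RNA poor class there is a single Ch25h-/- library, Tau+ replicate 1. It lay below all 4 Ch25h+/+ Tau+ libraries, of the same class, for 9 of the 10 members, the exception being Gpnmb. The 9 include Igf1, at 6.85 against 7.51 CPM. The share of all genes for which this library lies lowest was not computed, so nothing further is read from the count. This is a description of 1 library.

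Without the tau transgene, Ch25h loss gave no call among the members (edgeR quasi-likelihood test, adjusted p 0.541 to 0.901), and 0 members had an unadjusted p under 0.05, against 20.6% of all genes. DESeq2 and limma-voom also called 0 members, with 1048 and 1438 calls over all genes. Of all genes 1.04% fell, and 8.58% had all Ch25h-/- Tau- libraries below the Ch25h+/+ Tau- libraries, which no member did. With only the 8 Tau- libraries 7 members pass the filter, Clec7a, Itgax and Cst7 being too low, and none of the 7 was called, while calls over all genes went from 236 to 1353. The members' median log2 fold change was 0.15, and that of all genes 0.0087. Cd9 was measured best, with a log2 fold change of -0.05 (standard error 0.15), and Igf1 gave 0.19 (standard error 0.18). Clec7a and Cst7 had 8 to 16 counts over the 4 libraries of each group, so that their log2 fold changes of 1.23 (standard error 1.06) and 0.42 (standard error 1.52) bound little. Spp1 read 20.6, 5.76, 5.54 and 9.65 CPM in Ch25h-/- Tau-, and the first of these lies above the lowest Ch25h+/+ Tau+ library. In that library the summed fibroblast markers were 94.3 CPM, against 39.8 to 52.5 CPM in the other 3 of its group; their part in the Spp1 level was not tested.

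**Figure D3:**
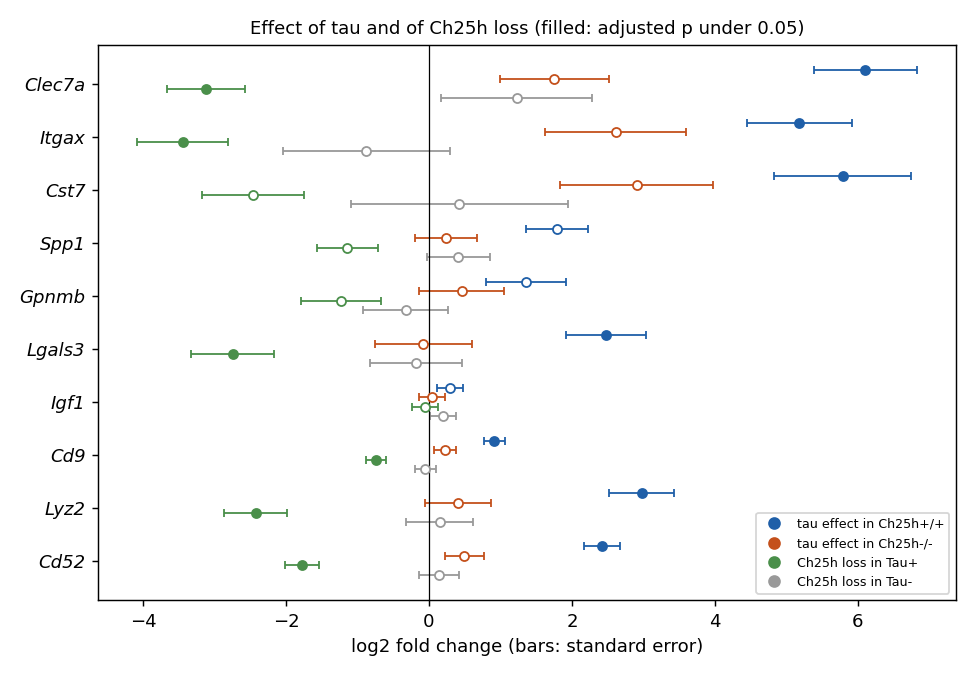
Log2 fold change of each gene in 4 comparisons (colours), with bars of 1 standard error from the edgeR fit of all 16 libraries, filled where the adjusted p was under 0.05. Tau effects in Ch25h+/+ are filled for 7 genes and Ch25h loss in Tau+ for 6, while tau effects in Ch25h-/- and Ch25h loss in Tau- have no filled point.

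The difference between the tau effects was tested as an interaction, the tau effect in Ch25h-/- minus that in Ch25h+/+. It was below 0 in 10 of 10 members, with a median of -2.24 against 0.015 for all genes, and no member passed (edgeR quasi-likelihood test). At an unadjusted p under 0.05 there were 6 members, Clec7a and Lgals3 among them through the filter described above, against 4.0% of all genes, and at an adjusted p under 0.05 0.0226% of all genes passed as lower. Limma-voom called 0 members, with 2 calls over all genes. DESeq2 called 2 members, Lyz2 and Cd52, with 55 calls over all genes. Cd52 came closest, at -1.92 (standard error 0.37, adjusted p 0.0986, and 0.0428 with no filter beyond 1 count), and its 4 Tau+ libraries were above its 4 Tau- libraries in both genotypes. Lyz2 gave -2.57 (standard error 0.64, adjusted p 0.319), Cd9 -0.69 (standard error 0.21, adjusted p 0.475) and Clec7a -4.35 (standard error 1.21, adjusted p 0.423). Without Ch25h-/- Tau+ replicate 2, Clec7a passed at -5.69 (adjusted p 0.00614). On simulated data of this design, the interaction test recovered 60.2% of changes of log2 size 1 and 83.8% of size 2. The changed genes were picked at random there and no library class was simulated. These shares are therefore not the power for the members, some of which had few counts.

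Against all other libraries, 7 members had all 4 Ch25h+/+ Tau+ libraries above the other 12, as did 1.53% of the genes tested. Clec7a, Itgax and Cst7 of these 7 were tested through the Ch25h+/+ Tau+ group where they are high. Lgals3 does not pass the filter in the Ch25h-/- libraries alone, so the count is a description. In 6 of these 7 the highest of the other 12 libraries was Ch25h-/- Tau+ replicate 2. The gap was narrow for Itgax, 3.20 against 2.73 CPM, and wide for Cd52, 3.82 against 1.56 CPM, and for Lyz2, 25.2 against 12.1 CPM.

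A further 34 genes of the disease-associated program were read the same way, of which 32 passed the filter on low counts. With Ch25h present 16 of the 32 rose with tau and none fell, with a median log2 fold change of 0.58, while 1.53% of all genes rose. Tyrobp, the signalling adaptor of Trem2, stood at 7.33 ± 0.436 CPM in Tau- and rose to 19.1 ± 4.29 CPM in Tau+ (SD, n = 4), by 1.38 on the log2 scale (adjusted p 3.68e-05). Trem2 itself stood at 13.3 ± 0.955 CPM and rose to 30.9 ± 7.47 CPM (SD, n = 4), by 1.21 (adjusted p 0.000115). B2m, the light chain of class I molecules, gave 0.93 (adjusted p 8.59e-05) and the cathepsin gene Ctsz 0.91 (adjusted p 0.000152). Among Tau+ libraries 18 of the 32 fell with Ch25h loss and none rose, with a median of -0.53, while 2.65% of all genes fell. The 4 smallest p-values were those of Tyrobp (-1.38, adjusted p 4.98e-05), Ctsz (-0.99, adjusted p 8.71e-05), Trem2 (-1.22, adjusted p 0.000175) and Apoe, the lipid carrier (-0.84, adjusted p 0.000509). None of the 32 passed for tau in Ch25h-/- (median 0.14, 2 at an unadjusted p under 0.05), for Ch25h loss in Tau- (median -0.11, 5) or for the interaction (median -0.54, 16). The shares of all genes at an unadjusted p under 0.05 were 3.57%, 20.6% and 4.0% in these comparisons, so that the 5 of 32 for Ch25h loss in Tau- lie below the share of all genes.

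By the same rule of smallest p, Ctsl, Ccl4, Ccl6 and Gusb came first for tau in Ch25h-/-, with log2 fold changes of 0.23, 2.90, 0.75 and 0.21. The value of Ccl4 (standard error 1.14) bounds little, as it rests on levels near the limit of detection. Ccl4 averaged 0.0151 CPM in Ch25h-/- Tau- and 0.163 CPM in Ch25h-/- Tau+, against 1.01 CPM in Ch25h+/+ Tau+. Ctsl encodes a lysosomal protease, Gusb a lysosomal glycosidase, and Ccl4 and Ccl6 chemokines. For Ch25h loss in Tau- they were Gusb (-0.31), Ctsz (-0.30), Apoe (-0.27) and Fabp5 (-0.25), with adjusted p of 0.111 to 0.200. For the interaction they were Tyrobp (-1.10), B2m (-0.76) and Csf1 (-0.66), each with an adjusted p of 0.118, and Trem2 (-0.95, adjusted p 0.160).

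Of the 13 homeostatic genes, 3 rose with tau with Ch25h present and none fell, against 1.53% of all genes that rose, with a median log2 fold change of 0.25. The growth factor receptor Csf1r gave 0.50 (adjusted p 0.00128), the fractalkine receptor Cx3cr1 0.51 (adjusted p 0.0168) and the orphan receptor Gpr34, which did not pass, 0.62 (adjusted p 0.0646). Among Tau+ libraries 5 fell with Ch25h loss, against 2.65% of all genes, with a median of -0.18, and those of smallest p included Csf1r (-0.47), Tmem119 (-0.39) and Cx3cr1 (-0.43). None passed for tau in Ch25h-/-, where Gpr34 (0.27), Slc2a5 (0.23), Csf1r (0.11) and Fcrls (0.39) had the smallest p, nor for the interaction, where these included Csf1r (-0.39), Cx3cr1 (-0.46) and Selplg (-0.30). For Ch25h loss in Tau- the purinergic receptor gene P2ry12 was closest (0.47, adjusted p 0.0605), then Slc2a5 (-0.50), Tmem119 (-0.30) and Fcrls (-0.66).

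The summed homeostatic level was 396 ± 15.8 CPM in Ch25h+/+ Tau-, 518 ± 52.6 in Ch25h+/+ Tau+, 390 ± 22.2 in Ch25h-/- Tau- and 412 ± 30.3 in Ch25h-/- Tau+ (SD, n = 4). The members were therefore also read per 1000 CPM of it. On that scale 8 of the 10 had all Ch25h+/+ Tau+ libraries above the Ch25h+/+ Tau- libraries, and 7 of the 10 had all Ch25h-/- Tau+ libraries below the Ch25h+/+ Tau+ libraries. The same held for 1.15% and 0.857% of all genes. Both member counts include Clec7a, Itgax, Cst7 and Lgals3, which do not pass the filter on low counts in the Ch25h-/- libraries alone. Clec7a went from 0.255 ± 0.211 to 13.3 ± 3.72 with tau, and Cd52 from 2.05 ± 0.854 to 8.22 ± 0.459 (SD, n = 4). For Cd9 the fold in this ratio was 1.43, below the 1.88-fold of its CPM in the fit. With the homeostatic level as a covariate in the fit, 2 members rose with tau in Ch25h+/+, Clec7a (log2 fold change 4.40, adjusted p 0.0483) and Cd52 (2.42, adjusted p 0.0125). The 5 that lost their call went to 2.91 for Itgax, 4.06 for Cst7, 1.49 for Lyz2, 0.69 for Lgals3 and 0.51 for Cd9. With Ch25h loss in Tau+ 1 member fell, Cd52 (-1.78, adjusted p 0.0446), and the 5 that lost their call went to -1.85 for Clec7a, -1.74 for Itgax, -1.15 for Lgals3, -1.17 for Lyz2 and -0.41 for Cd9. Calls over all genes, in both directions, went from 291 to 13 for tau and from 698 to 17 for Ch25h loss with this covariate, so the drop is not particular to the members.

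Per 100 CPM of 6 pan-myeloid genes, whose sum went from 61.2 ± 3.44 to 106 ± 14.7 CPM with tau in Ch25h+/+ (SD, n = 4), 6 members were higher without overlap and Igf1 was lower. Of all genes 0.468% were higher and 72.3% lower on this scale, whose denominator itself rose, so the lower ratio of Igf1 is shared by most genes. The 6 were Clec7a, Itgax, Cst7, Spp1, Lyz2 and Cd52, of which Clec7a, Itgax and Cst7 were tested through libraries where they are high. Cd9 gave 41.4 ± 3.72 and 44.3 ± 5.16 (SD, n = 4), with overlap. Igf1 gave 12.99 ± 2.33 and 9.06 ± 0.929 (SD, n = 4). For Ch25h loss in Tau+ on this scale, 4 members were lower without overlap, Clec7a, Lgals3, Lyz2 and Cd52, against 0.209% of all genes. Of these, Clec7a and Lgals3 do not pass the filter in the Ch25h-/- libraries alone. Igf1 was higher, as were 64.1% of all genes, at 15.2 ± 2.67 in Ch25h-/- Tau+, and 5 overlapped, among them Itgax, Cst7 and Cd9, the last at 46.3 ± 1.68 (SD, n = 4). Of the 6 pan-myeloid genes, Spi1 (0.99, adjusted p 0.000540), Laptm5 (0.75, adjusted p 0.000580) and Ptprc (1.31, adjusted p 0.000219) rose with tau in Ch25h+/+, and the same 3 fell with Ch25h loss in Tau+.

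The other cells that the tissue could hold were read by the summed levels of their markers. Border macrophage genes summed to 6.05 to 14.3 CPM in Ch25h+/+ Tau- and 12.7 to 21.7 CPM in Ch25h+/+ Tau+, with 1 of the 7 called, Ms4a7 (1.83, adjusted p 0.00881). Fibroblast genes summed to 39.5 to 73.8 CPM and 68.2 to 131 CPM, with 0 of 5 called. T cell genes summed to 0.151 to 0.383 CPM and 0.697 to 1.17 CPM, with none of 6 passing the filter on low counts. Monocyte genes summed to 0.353 to 0.690 and 0.607 to 1.01 CPM, with means of 0.484 and 0.809 CPM. The 1 of 5 that passed the filter, Ccr2, was higher without overlap of the groups but was not called (0.73, adjusted p 0.883). Neutrophil genes summed to 0.403 to 2.36 and 0.325 to 2.34 CPM. Ly6g, with 3 counts over the 16 libraries, was at 0 in all Ch25h+/+ Tau+ and all Ch25h-/- Tau- libraries. In Ch25h-/- Tau+ the border macrophage sum was 8.49 to 15.1 CPM and the T cell sum 0.0625 to 0.325 CPM. Cd3d, with 11 counts over the 16 libraries, was at 0 in all libraries of both Ch25h-/- groups. The part of these cells in the members' levels was not tested.

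**Figure D4:**
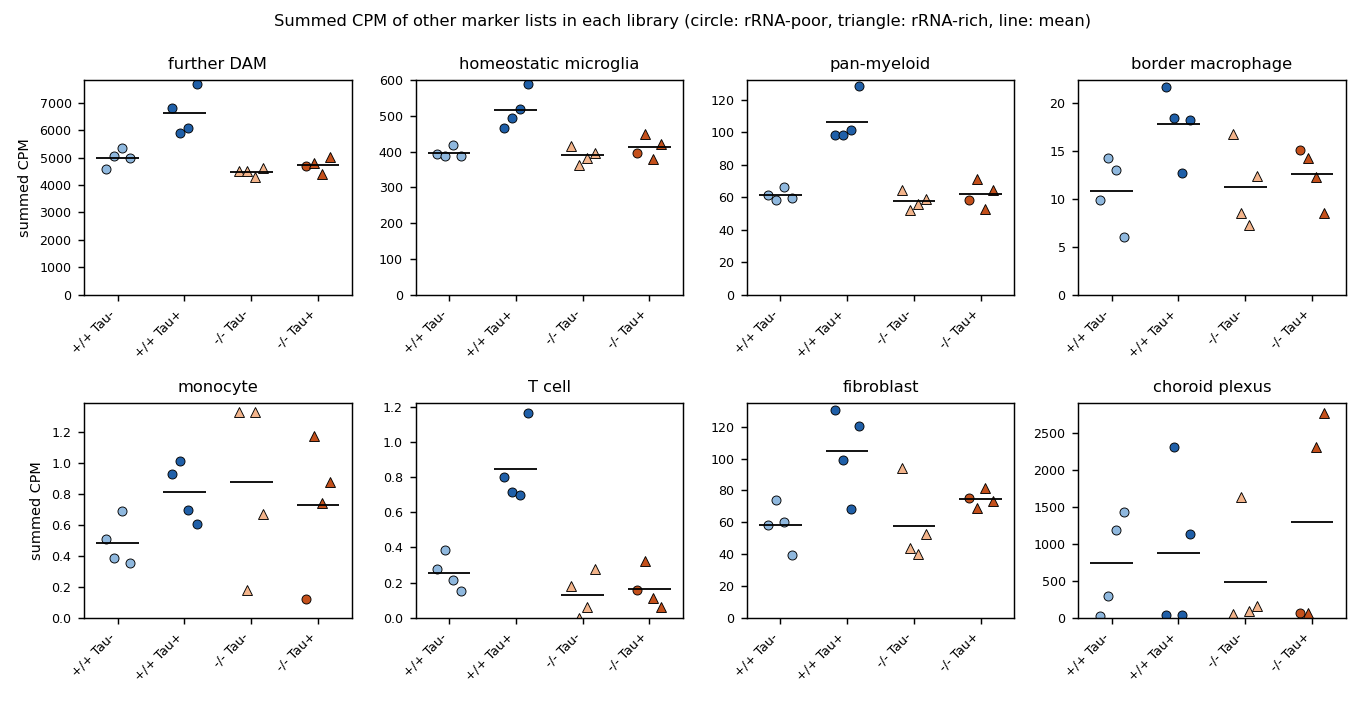
Summed CPM of 8 marker lists in each of the 16 libraries, with 1 panel per list, 1 column per group, circles for libraries poor and triangles for libraries rich in the ribosomal RNA transcript, and lines for group means. The further disease-associated, homeostatic and pan-myeloid sums of the Ch25h+/+ Tau+ libraries lie above those of the other 3 groups, and the choroid plexus sums are scattered within every group.

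The genes whose levels over the 16 libraries were most like the 10 members, by mean Pearson r among 14476 genes of mean log2 level 1 or more, included Gfap (0.857), Mpeg1 (0.857), Cxcl16 (0.853), Cd68 (0.851), Laptm5 (0.842), Tmem176a (0.840), C3ar1 (0.838), Ctss (0.836) and Tlr2 (0.835). These values describe libraries that share group and depth differences. Gfap averaged 139 CPM in Ch25h+/+ Tau-, 762 in Ch25h+/+ Tau+, 127 in Ch25h-/- Tau- and 197 in Ch25h-/- Tau+. Among the members, r over the 45 pairs had a median of 0.824 and a range of 0.294 to 0.975, and after the group means were taken off the median was 0.490. Igf1 had the lowest mean r with the other 9, at 0.369, and Cd9 the highest, at 0.839.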

How the data were processed

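Per the labels' protocols, total RNA of 500 ng was taken up with a column kit and made into libraries with a SMARTER mRNA kit. The submitters' processing notes name STAR 2.7 and the builds GRCm38 and mm10, while the counting program, the annotation and the use of strand are not given in the sources used here. The deposited table holds raw read counts per gene and library, with no normalization by the authors. Gene positions and exon lengths came from GENCODE M21 and promoter sequences from RefSeq (GRCm38.p6).

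The members and lists were chosen with earlier results of these data known. Genes were filtered with filterByExpr and tested with edgeR 4.0.16 in R 4.3.3 (robust quasi-likelihood F test, two-sided, TMM, a single model with 4 group means over the 16 libraries), with Benjamini-Hochberg adjustment over the 17736 genes at 0.05. Standard errors are the log2 fold change over the root of F. Limma 3.58.1 and DESeq2 1.42.0 served as alternatives, beside other size factors, filters, covariates and fits that left out 1 library each. The text names all 10 members, the 4 further and 4 homeostatic genes of smallest p in each comparison, and the 10 genes most alike, except for a gene that is not reported here; other genes are named as label checks or cell markers. On simulated counts with known changes, the tau test in Ch25h+/+ recovered 75.5% of log2 changes of 1 and 93% of 2. With randomly picked genes and no library class in the simulation, these shares do not hold for each member. Replicate numbers follow record order and pair nothing. Reads carry no molecular identifiers, so limits from counts cover counting error only.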

Additional observations from a re-analysis of the deposited data

Results flagged for a closer look

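In a group of 4 libraries, a highest or lowest value whose gap to the next takes up more of the group's range than the 95% critical value of Dixon's test was singled out. Chance gives about 1 in 20 such groups, or 2 of the 40 groups tested here, and 3 were found.

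Clec7a in Ch25h-/- Tau+ replicate 2 read 2.47 CPM, with a gap of 0.927 of the range, and Cst7 in the same library read 3.96 CPM, with a gap of 0.920. Both values rest on that library, with 38 Clec7a and 61 Cst7 counts. Lgals3 in Ch25h+/+ Tau+ replicate 4 read 9.20 CPM on 197 counts, with a gap of 0.962.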

How the results depend on the processing

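No paired analysis was possible because the labels carry no replicate numbers shared between groups. The 41 changes of sign among 1262 refits of single members all fell on values that had not passed; the 331 refits of called values kept their sign. Requiring a mean of at least 50 counts left 6 members in the test. It gave 3 calls for tau in Ch25h+/+ and 3 for Ch25h loss in Tau+, against 212 and 770 among all 13429 genes. The homeostatic covariate gave 2 and 1, against 13 and 17 over all genes. For Ch25h loss in Tau+, the fit of only 8 libraries gave 1, against 119 over all genes, and the library class covariate 0, against 12. Fits that left out 1 library gave 2 to 7, against 125 to 1718. For the interaction, no filter beyond 1 count gave 1 and DESeq2 gave 2, against 16 and 55 over all genes. Fits without 1 library gave 0 to 1, against 1 to 13. The causes were not tested. Tau in Ch25h-/- and Ch25h loss in Tau- gave 0 member calls in every setting run, over the members each setting tested (6 and 7 of the 10 with only the 8 libraries compared, and 6 with a mean of at least 50 counts).

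Signs turned with the homeostatic covariate for tau in Ch25h+/+ in Gpnmb (-0.58) and Igf1 (-0.024), for tau in Ch25h-/- in Spp1 (-0.090), Gpnmb (-0.26), Igf1 (-0.086) and Lyz2 (-0.055), for Ch25h loss in Tau+ in Gpnmb (0.42) and Igf1 (0.20), for Ch25h loss in Tau- in Gpnmb (0.10), Lgals3 (0.31) and Cd9 (0.039), and for the interaction in Gpnmb (0.32). With the library class covariate they turned for Ch25h loss in Tau- in Clec7a (-0.085), Cst7 (-1.30), Spp1 (-0.26), Igf1 (-0.39), Lyz2 (-0.22) and Cd52 (-0.24), and for tau in Ch25h-/- in Lgals3 (0.027). Limma-voom turned Lgals3 for tau in Ch25h-/- (0.12) and Lyz2 for Ch25h loss in Tau- (-0.081), and the choroid plexus covariate Igf1 for tau in Ch25h-/- (-0.010). Leaving out 1 library gave ranges across 0 for tau in Ch25h-/- in Lgals3 (-0.36 to 0.21) and Igf1 (-0.081 to 0.17), for Ch25h loss in Tau+ in Igf1 (-0.19 to 0.067), for Ch25h loss in Tau- in Spp1 (-0.16 to 0.62), Lgals3 (-0.48 to 0.40), Cd9 (-0.12 to 0.017), Lyz2 (-0.21 to 0.33) and Cd52 (-0.051 to 0.34), and for the interaction in Gpnmb (-1.19 to 0.021).

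Depth limits Clec7a, Itgax and Cst7 in the Tau- groups, where 3 counts are 0.129 to 0.181 CPM, and their large fold changes rest on 8 to 25 counts per group.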

Other observations

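The genes most like single members differed between members. By Pearson r over the 16 libraries, Clec7a was most like Mpeg1 (0.977), Gfap (0.973) and C4b (0.972), Itgax like Gfap (0.974), Mpeg1 (0.973) and Cd68 (0.962), Lyz2 like Gfap (0.974), C4b (0.972) and Adgre1 (0.956), and Cst7 like Cd68 (0.956), Mpeg1 (0.954) and Ly86 (0.951). Mpeg1 encodes a pore-forming protein of macrophages, C4b a complement component and Adgre1 the macrophage surface protein F4/80. Cd9 was most like Cxcl16 (0.966), Gfap (0.945) and Tgfbr2 (0.943), and Cd52 like Apobec3 (0.960), C3ar1 (0.956) and Ctss (0.950).

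The other 4 members had other partners. Spp1 was most like Serping1 (0.958), the C1 inhibitor gene, Efemp1 (0.904), a matrix protein gene, and Rhoj (0.900). Lgals3 was most like Tnfrsf1a (0.949), Vim (0.942) and Tmem176a (0.920), and Gpnmb like Scara3 (0.924), Cx3cr1 (0.845) and Hspb8 (0.842). Igf1 was most like Gclm (0.812), Hibadh (0.811) and Net1 (0.803). The libraries share group and depth differences, and these r values are descriptions.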
